A study of Mus musculus with 188 samples.

Results

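The genome of mouse embryonic stem cells (mESCs) was divided into bins of 50 kb, and 937 of 46743 autosomal bins replicated earlier in a haploid than in a diploid line at matched progress through S phase. The haploid line was H129-2, of the 129 strain, and the diploid line was F121-9, a hybrid with 1 chromosome set from 129 and 1 from Castaneus. Both were grown without feeder cells in N2B27 medium with 2i and LIF, which keeps mESCs undifferentiated, and no other treatment was named. Single nuclei were sorted by DNA content, the genome of each was amplified and sequenced at low coverage, and each bin of a cell was called replicated or unreplicated from its copy number. Values could be assigned to 138 S-phase cells, 75 of them haploid and 63 diploid. The lines differ in ploidy and in strain at the same time. The same well names occur in both lines, so they also differ in plate, and ploidy, strain and plate cannot be told apart. Each cell is labelled by its line and well, and the number of plates and separate cultures are not given. The lines are therefore set side by side without a test, and every SD is the spread over cells of 1 line. The depth of each cell is unknown from these values, and since they hold copy number and no expression, the cell type was not checked against markers.

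The genome is copied in large units that replicate at characteristic times, and the order in which they do so is called the replication timing program. Early replication goes with open, gene-rich chromatin and late replication with compact chromatin near the nuclear lamina. Between early and late domains lie timing transition regions, which replicate progressively later with distance from the early side.

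The members were selected on mid-S-phase cells, those with 40% to 60% of their autosomal bins replicated. There were 25 such haploid cells, with 53.3% ± 4.91 of bins replicated (SD, n = 25), and 46 diploid cells, with 53.3% ± 5.24 (SD, n = 46). This percentage is called progress below, and in diploid cells it is the mean of both homologs. A bin was a member when the percentage of haploid cells that had replicated it exceeded the percentage of diploid cells by 30 points or more. The members were 2.00% of the bins and covered 46.85 Mb. In the opposite direction, 1484 bins, 3.17%, were ahead in diploid cells by 30 points or more, and they are called the mirror bins. Since these mid-S-phase values chose the members, they describe the set and support nothing about it. Early and late S-phase cells were not used in the choice.

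Genes named with a domain are protein-coding and overlap the domains of member bins described further on. Genes named from lists start in a member bin, which need not lie in a domain. To show the sequence context in which these domains replicate, the 100 bases upstream of the outermost annotated start are printed for 4 genes in long domains, taken from RefSeq on GRCm38.p6 (the same assembly as mm10), 5′ to 3′ on the strand of the gene. Capitals mark CpG dinucleotides, the sites of DNA methylation in mammals.
Trpc6, a cation channel gene, chr9:8544042-8544141, plus strand: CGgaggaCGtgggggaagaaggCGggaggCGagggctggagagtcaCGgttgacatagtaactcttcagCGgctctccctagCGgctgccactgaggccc
Rasgrp1, a Ras activator gene, chr2:117343002-117343101, minus strand: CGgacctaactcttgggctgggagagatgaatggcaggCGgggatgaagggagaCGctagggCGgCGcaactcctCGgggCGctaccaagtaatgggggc
Vrk2, a serine/threonine kinase gene, chr11:26594000-26594099, minus strand: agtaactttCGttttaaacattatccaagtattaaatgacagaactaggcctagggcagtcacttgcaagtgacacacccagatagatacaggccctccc
Ccdc85a, a coiled-coil protein gene, chr11:28584325-28584424, minus strand: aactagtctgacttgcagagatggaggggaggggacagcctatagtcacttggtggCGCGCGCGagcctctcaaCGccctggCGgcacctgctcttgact
The stretches of Trpc6 and Rasgrp1 each hold 7 CpGs, that of Ccdc85a holds 6 and that of Vrk2 holds 1. Of the genes starting in a member bin, 250 had a RefSeq promoter of 300 bases, which held a median of 4 CpGs (the letters CG, which read the same on both strands), against 15 for all 15183 autosomal promoters. At least 10 CpGs were present in 31.6% of the member promoters and in 61.5% of all. Without olfactory and vomeronasal receptor and keratin genes, which are clustered, the medians were 7 over 173 promoters and 17 over 13981, so member promoters remained the poorer in CpG. The promoters of 314 genes starting in mirror bins had a median of 12. Promoters were not compared at like replication timing.

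Within the mid-S-phase cells, the member bins were replicated in a median of 72% of haploid cells (5th to 95th centile over bins 40% to 96%) and of 32.6% of diploid cells (4.35% to 63%). The difference had a median of 35.7 points over the members and reached 65.1, whereas over all bins its median was 0 with an SD of 13.4. It was 40 points or more in 255 members and 50 points or more in 47. In 548 members most haploid and fewer than 50% of diploid cells had replicated the bin, in 188 both lines were above 50%, and in 171 both were below. At the extremes, 42 members were replicated in all 25 haploid cells and 13 in none of the 46 diploid cells. The limit of 30 points did not fall in a gap: 210 members lay between 30 and 32 points and 228 bins lay between 28 and 30 points, with the highest of these at 29.96. The bins just outside were replicated in 62.9% of haploid and 34% of diploid mid-S-phase cells on average, and those just inside in 71.9% and 40.9%.

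In single cells, the members followed a different course in each line. In mid S phase, the lowest haploid cell had replicated 46.3% of the members, the median cell 73.1% and the highest 85.1%. The lowest, median and highest diploid cells were at 9.82%, 33.9% and 52.6%. These values were used by the rule, and they still overlapped, because 8 diploid cells were at or above the lowest haploid cell. By plate row, the means of these same cells ran from 53.6% to 75.1% in haploid and from 25.8% to 39.5% in diploid cells, a separation that the choice of members largely sets.

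**Figure D1:**
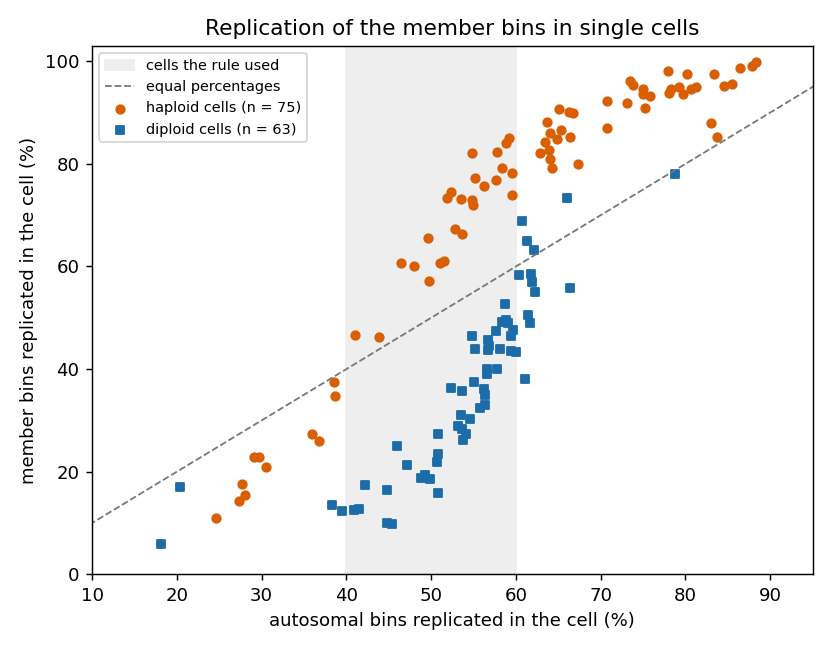
Each point is a cell, with its progress (percentage of autosomal bins replicated) on the x axis and the percentage of the 937 member bins replicated on the y axis, and the grey band marks the cells that chose the members. All 26 haploid cells in the range compared for late S phase lie above the dashed line of equal percentages, as do 4 of the 13 diploid ones.

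The difference between the lines was also present in late S phase, in cells that took no part in the choice. Late cells were those above 60% progress, up to the highest diploid cell at 78.8%. The lowest of the 26 haploid late cells had replicated 79.2% of the members, the median cell 90.02% and the highest 98.1%. The lowest of the 13 diploid late cells had replicated 38.1%, the median cell 58.4% and the highest 78%. The 2 groups of cells did not overlap. The means were 88.9% ± 5.42 (SD, n = 26) and 59.3% ± 10.6 (SD, n = 13), a difference of 29.7 points. The haploid late cells were further through S phase, with 69.4% against 63.5% of all bins replicated, a difference of 5.91 points. Subtracting the progress of each cell left 23.7 points. This matches stage only roughly, because members rose more steeply with progress than other bins did. Outside mid S phase the logistic slopes were 0.0893 (haploid) and 0.0753 (diploid) for members, against 0.0441 and 0.0436 for all other bins. The slopes of the other bins are nearly fixed, because these bins are most of those that define progress. In cells between 60% and 65%, where progress was 63.9% and 61.5%, the members were replicated at 83.5% in 8 haploid and at 56.4% in 10 diploid cells. The highest of these diploid cells was at 62.2% and the lowest haploid cell at 62.8%, so progress did not overlap. Relative to their own progress, members were ahead in 26 of 26 haploid and in 4 of 13 diploid late cells. Bins of the middle of the schedule tend to move ahead of progress after mid S phase. Even the mirror bins averaged 72.9% in the haploid late cells, above their progress of 69.4%. These counts alone therefore do not set the members apart.

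Bin by bin, 892 of the 937 members were replicated in a larger share of haploid than of diploid late cells, 30 in an equal share and 15 in a smaller one. Of all bins, 50.2% were higher in haploid late cells. A late difference of 30 points or more was present at 439 members, 46.9% of them, against 7.67% of all bins. Among the 17280 non-member bins of deciles 4 to 7 of the replication schedule, in which most members lie, 58.4% were higher in haploid cells and 8.53% were higher by 30 points or more. The bins just outside the limit of the rule were replicated in 86.1% of haploid and 58.5% of diploid late cells, and those just inside in 89.3% and 65.6%. The mirror bins went the other way in late cells, with a mean difference of -9.98 points despite the more advanced haploid cells.

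In early S phase, below 40% progress, only 2 diploid cells fell in the range of the haploid cells. Members were replicated at 12.4% and 13.6% in these 2 cells. The 11 haploid early cells ranged from 10.9% to 37.6% with a median of 22.8%. Their range thus included both diploid values, but the diploid cells were further through S phase, at 38.9% against 31.5% of bins on average. The mean haploid minus diploid difference was 9.78 points at the members and -7.37 points over all bins. Of the members, 612 were higher in haploid early cells, or 65.3%, against 26% of all bins, and 152 were higher by 30 points or more, or 16.2%, against 6.15%. Every early cell of either line had replicated a smaller percentage of the members than of all bins. The mirror bins were also behind on average, at 9.13% in the 11 haploid and 33.2% in the 2 diploid cells, so this is not particular to the members. The 2 earliest diploid cells, below the range of the haploid cells, had 5.87% and 17% of the members replicated.

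A logistic curve of member state against progress placed the point at which 50% of the members were replicated at 44.4% progress in haploid and 60.1% in diploid cells, a shift of 15.8 points that includes the cells used for the choice. Without the mid-S-phase cells the points were 45.7% and 58.4%, a shift of 12.8 points. All other bins, without the mid-S-phase cells, gave 49.98% and 50.4%. Both lie near 50% by construction, because progress is computed almost wholly from these same bins. They are therefore no independent comparison for the shift of the members.

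Each bin was given a scheduled time, the percentile of its rank from 0 (earliest) to 100 in the mean of both lines' smoothed copy number profiles. This was taken from the 67 cells outside mid S phase (50 haploid, 17 diploid) and was available for 889 members. The median member lay at percentile 57.2, just behind the middle of the program, with the 10th and 90th centiles of the members at 42.9 and 69.6. In haploid cells alone the median was 51.8 and in diploid cells alone 60.9. By deciles of the schedule, members made up 7.85% of the bins in decile 6 and 5.76% in decile 7, and 0 in the first and the last. Deciles 4 to 7 held 86.2% of the members. A bin that is replicated in nearly all or nearly no mid-S-phase cells cannot differ by 30 points, so the rule itself favors the middle of the schedule.

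**Figure D2:**
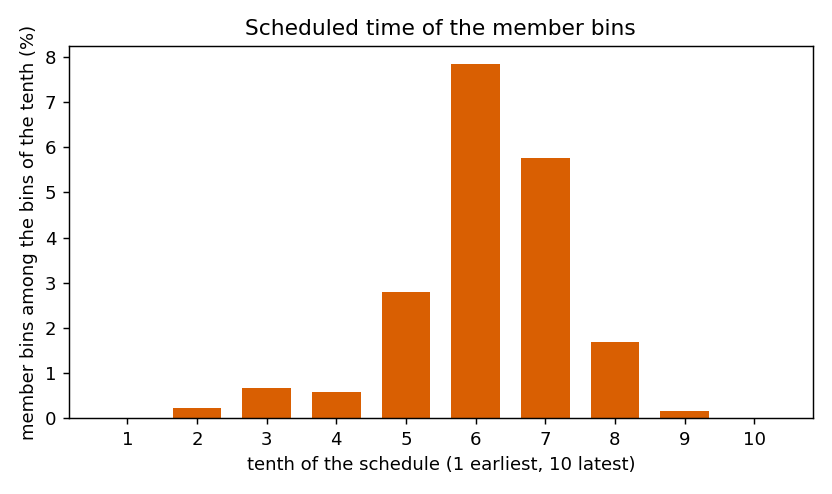
Bars give the percentage of the bins in each decile of the schedule that were members, with the earliest at the left. Decile 6 stands highest at 7.85%, and the first and last hold 0 members.

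The members were not scattered singly along the genome. They formed 223 runs of adjacent bins, of which 76 were single bins and 82 had 2 to 4 bins. The remaining 65 runs had 5 bins or more and are called domains, since the segmentation behind the binarized states used at least 5 bins. These domains held 648 members, 69.2% of the set, with a median length of 400 kb and a longest of 1.4 Mb, and lay on 16 of the 19 autosomes. Adjacent bins share a segment and are not independent, so a domain counts as a single unit below.

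In late S phase, 63 of the 65 domains were replicated to a higher percentage in haploid than in diploid cells, 1 was equal and 1 was lower. The difference had a median of 26.2 points and was 30 points or more in 27 domains. The lower one, chr2:60950001-61200000 which overlaps the gene of the RNA-binding protein Rbms1, was replicated at 85.4% in haploid and 93.8% in diploid late cells, and the equal one, chr5:3000001-3300000, was at 52.6% in both. Haploid late cells had replicated more than 90% of the bins in 40 domains. Diploid late cells had replicated more than 50% in 50 domains and less than 25% in 10. In early S phase 49 domains were higher in haploid cells, 6 equal and 10 lower, and the haploid early cells had already replicated more than 50% of 4 domains.

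**Figure D3:**
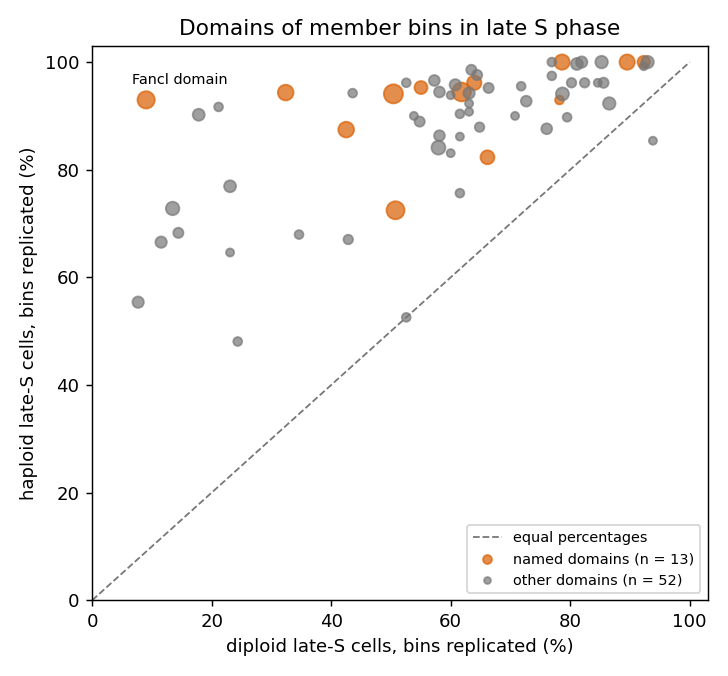
Each point is 1 of the 65 domains, drawn larger the more bins it has, with the percentage of its bins replicated in diploid late-S cells on the x axis and in haploid late-S cells on the y axis. The points lie above the dashed line of equal percentages except 1 on it and 1 below it, and the Fancl domain stands at 9.03% against 93%.

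The domain with the largest mean difference in mid S phase was also the one furthest apart in late S phase. It covers 1.15 Mb at chr11:25500001-26650000 and holds 5730522E02Rik, Vrk2 (whose upstream sequence had 1 CpG), Gm6899 and Fancl, which encodes the ubiquitin ligase subunit of the Fanconi anemia DNA repair complex. In mid S phase its bins were replicated at 63.1% in haploid and 12.2% in diploid cells. In late S phase the lowest haploid cell had replicated 60.9% of its bins, and the median and highest cells 100%. The lowest and the median diploid late cells were at 0% and the highest at 69.6%. More than 50% of the domain was replicated in 26 of 26 haploid late cells (exact 95% binomial interval 86.8% to 100%) and in 1 of 13 diploid late cells (0.195% to 36%), where the intervals cover the sampling of cells only. Even the most advanced diploid cell, at 78.8% progress, had replicated 13% of it. In the early cells it was replicated at 26.1% in haploid and at 0% in diploid cells.

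A second domain of 19 bins lies on the same chromosome at chr11:28400001-29350000, with Ccdc85a, Ppp4r3b, Cfap36, the extracellular matrix gene Efemp1 and Pnpt1, which encodes a mitochondrial RNA exonuclease. It was replicated at 87.4% in haploid and 42.5% in diploid late cells. The most advanced diploid cell had replicated 100% of it, unlike the Fancl domain. Another, chr11:99400001-100000000, contains 46 genes, most of them keratins and keratin-associated proteins of hair and skin, among them Krt12, Krt20, Krt23 and Krt39. It was nearly complete in late cells of both lines, at 100% and 92.3%, and the lines lay further apart before that, with 92.7% against 44.7% in mid S phase and 35.6% against 4.17% in early S phase.

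The longest domain, chr15:65300001-66700000 with 28 bins, contains Kcnq3, a voltage-gated potassium channel of neurons, together with Lrrc6, Efr3a and Phf20l1. It was replicated at 94.1% in haploid and 50.4% in diploid late cells. The diploid late cells spread from 3.57% to 100% with a median of 50.0%, whereas the lowest haploid late cell was at 64.3%. The second, chr9:8150001-9500000, holds Arhgap42, Gm16485, the progesterone receptor gene Pgr and Trpc6, whose upstream sequence had 7 CpGs. It stood at 94.4% and 61.8% in late cells, and at 12.8% and 3.70% in early cells. The third, chr2:116300001-117550000, holds the Ras pathway genes Rasgrp1 and Spred1 beside Fam98b and Tmco5. It had 72.5% against 50.8% in late cells, and here the ranges of both lines ran from 0% to 100%. Its early cells had the opposite order, with 6.55% in haploid and 18% in diploid cells.

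Domains on chromosome 9 differed among themselves. At chr9:3200001-4150000, near the start of the chromosome, with Gucy1a2 (a subunit of soluble guanylate cyclase), Cwf19l2 and the tRNA-modifying enzyme gene Alkbh8, late cells were at 94.3% and 32.4%, and the most advanced diploid cell had replicated 21.1% of the bins. At chr9:75650001-76450000, with the bone morphogenetic protein gene Bmp5, the orexin receptor gene Hcrtr2, Gfral, Hmgcll1 and Scg3, they were at 96.2% and 63.9%, and the most advanced diploid cell had replicated 100%.

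Both named domains of chromosome 19 had high haploid values in early S phase. The domain at chr19:55700001-56600000 holds Tcf7l2, a transcription factor of the Wnt pathway, Nrap and Nhlrc2. It was the earliest of the named ones, at percentile 21.9 of the schedule, and had 49.5% replicated in haploid and 13.9% in diploid early cells. By mid S phase it was replicated at 97.3% and 63.4%, and in late cells at 100% and 89.5%. The domain at chr19:34700001-35350000, with the mitotic kinesin gene Kif20b, Slc16a12 and the coenzyme A synthesis gene Pank1, was at 41.3% in haploid and 50.0% in diploid early cells, so it did not lead in that window. In late cells it was at 95.3% and 55%.

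The other named domains lay on chromosomes 7, 5 and 14. A cluster of vomeronasal receptors (pheromone receptors of the nose) with the inflammasome family gene Nlrp2 lies at chr7:5150001-6050000. Every one of the 26 haploid late cells had replicated 100% of it, and the diploid mean was 78.6%. At chr5:151000001-151750000, with Gm42906, Stard13, Vmn2r18 and the clamp loader subunit Rfc3 of the replication machinery, the late values were 82.3% and 66.2%. At chr14:124550001-124850000, overlapping Fgf14, which encodes an intracellular fibroblast growth factor homologous factor, they were 92.9% and 78.2%. Its early cells had the opposite order, with 15.2% in haploid cells and, in the 2 diploid cells, 0% and 100%. In the 13 haploid cells past the range of the diploid line it was replicated at 62.8%.

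Around the centres of the 65 domains, mean replication in haploid late cells rose from 69.2% at 1.5 Mb before the centre to 88.9% at the centre and fell to 70.6% at 1.5 Mb after it. The haploid curve had its lowest point, 66.9%, at 1.0 Mb before the centre and its highest, 90.4%, at 0.2 Mb after it. In diploid late cells the same 3 places were at 60.9%, 60.1% and 58%, and the curve fell to 51.5% at 0.65 Mb before the centre and reached 62.8% at 0.4 Mb after it, a smaller rise. Flanks of 10 bins on either side could be measured for 58 domains in mid S phase. In diploid cells 40 of these domains lay between their flanks, 11 had both flanks earlier and 7 had both flanks later. In haploid cells 37 lay between their flanks, 5 had both flanks earlier and 16 had both later. These flank values come from the cells that chose the members and are a description.

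**Figure D4:**
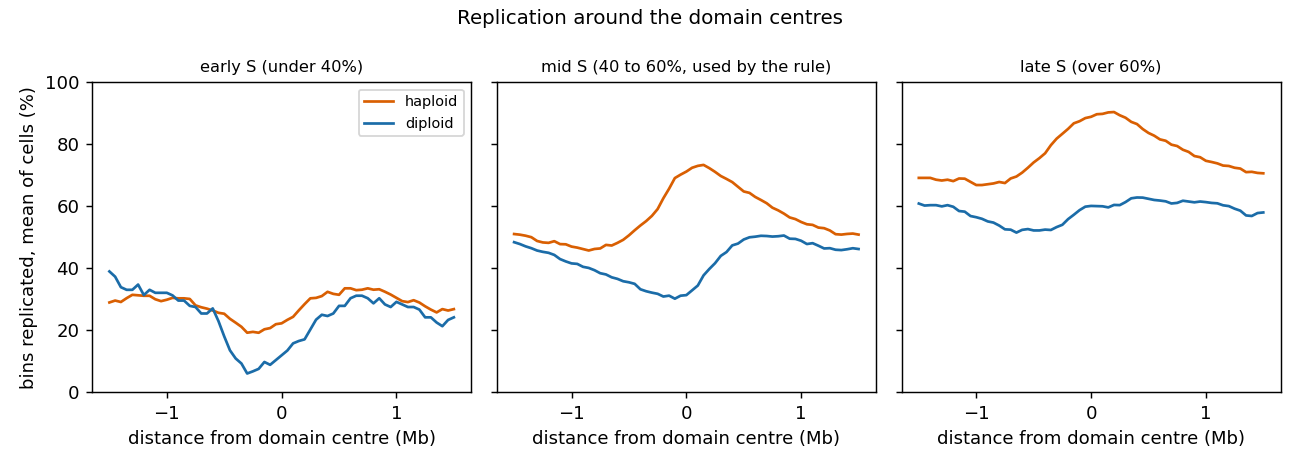
Mean percentage of bins replicated at each distance from the centre of the domains (x axis, Mb, in chromosome order), in early, mid and late S-phase cells, with haploid cells in orange and diploid cells in blue. In late cells the haploid curve is at 88.9% at the centre, and the diploid curve is at 60.1% there, after a low of 51.5% at 0.65 Mb before it.

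Chromosomes contributed very unequally to the set. Chromosome 11 held 138 members, 5.81% of its bins, in 10 domains, and 0 mirror bins. Chromosome 19 held 66 members, 5.77% of its bins, chromosome 9 held 104, 4.30%, and chromosome 17 held 64, 3.6%. Chromosome 3 held 1 member and 235 mirror bins, and chromosome 6 held 10 members and 180 mirror bins. The 5 chromosomes with the most members had 51.1% of them and 29.4% of all bins. The median difference over all bins of a chromosome also varied, from 5.43 points on chromosome 11 to -4.35 on chromosome 3, so the states of the lines also differed over chromosomes as a whole. The authors report abnormal karyotypes in a larger share of diploid than of haploid cells, most often loss of the X chromosome. Aneuploid chromosomes were rescaled as a whole, and whether this plays a part in these differences was not tested. After this median was subtracted from each chromosome, 764 bins passed 30 points, of which 755 were members, and chromosome 11 still held the most, with 101. Without chromosome 11 the late difference at the members was 28.9 points.

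**Figure D5:**
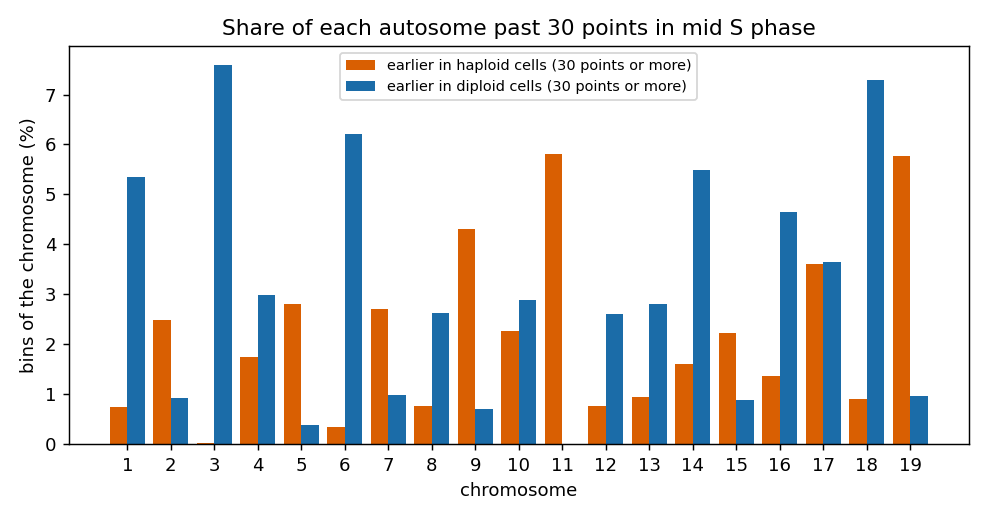
Bars give, for each of the 19 autosomes, the percentage of bins ahead by 30 points or more in haploid cells (orange, the members) and in diploid cells (blue, the mirror bins). Chromosome 11 has 5.81% members and 0 mirror bins, and chromosome 3 has 1 member bin and 7.59% mirror bins.

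Base composition moved with both the chromosomes and the members, in opposite directions. Across the 19 chromosomes, the percentage of member bins had a Pearson r of 0.788 with the GC content of the chromosome, and the median difference had an r of 0.914. Chromosomes are few and share every cell, so these are descriptions. Across bins the r of the difference with GC content was -0.0258. The members themselves had a lower GC content, 40.5% ± 2.64 (SD over 937 bins), than all bins, 41.9% ± 4.09. The difference was -0.760 points relative to non-member bins of the same decile of the schedule and -1.96 points relative to the mean of their own chromosome. The mirror bins were at 42.3%. CpGs occurred at 7.03 per kb in members and 8.55 per kb in all bins. Removing a linear trend of the difference on GC content left 931 bins past 30 points, 927 of them members.

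Position along the chromosome was uneven as well. Of the members, 67, or 7.15%, lay within the first 3 Mb of binarized sequence of a chromosome, next to the centromere in mouse, against 2.42% of all bins. The mirror bins had a similar share, 8.42%.

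The homologs of diploid cells carried nearly the same states at the members. Bins replicated on the 129 homolog alone made up 0.705% ± 1.25 of the members of a cell and bins replicated on the Castaneus homolog alone 0.286% ± 0.852 (SD, n = 63). The difference within cells was 0.418 ± 1.07 points (SD, n = 63), less than its spread, with 129 ahead in 23 cells, Castaneus in 6 and no asynchronous member bin in 33. Over all bins the difference was 0.198 points, and at the mirror bins -0.0342. The members were replicated at 37.1% by the 129 state and at 36.7% by the Castaneus state, so the 129 chromosomes of the diploid line carried nearly the same states as their Castaneus partners. In mid-S-phase cells, which chose the members, both were at 32.9% and 32.5%, and the 129 chromosomes of the haploid line were at 70.1%. Both homologs start from a copy of 1 unparsed state, changed only where enough parsed reads pass an asynchrony limit. Over all bins, 0.530% were called 129 alone and 0.332% Castaneus alone. The near equality is thus largely set by the method, and whether strain plays a part was not tested. At least 1 asynchronous cell was recorded at 405 members, 43.2%, against 40.1% of all bins, and at most 4 cells at any member. Over the 65 domains and 63 diploid cells, 29 of 4095 combinations had the 129 homolog alone replicated and 10 the Castaneus homolog alone.

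The members held the starts of 319 of 20048 protein-coding genes, or 1.59%, and 6.81 starts per Mb against 8.58 over all bins. At like scheduled time the order was mixed. In decile 6 members had 6.38 and other bins 6.52 starts per Mb, whereas members had more in decile 5 (12.5 against 8.89), decile 7 (5.08 against 4.56) and decile 8 (5.53 against 3.57), and fewer in deciles 2 to 4. Of the 65 domains, 7 overlapped no protein-coding gene and the median was 3.

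Gene groups were counted by how many of their starts fell in member bins, to be read against the 1.59% of all protein-coding genes. At that share most of the lists would hold fewer than 1 such gene or close to 1, so a count of 0 or 1 in them shows no departure from it. None of 28 core pluripotency genes, 35 regulators of germ layers and trophoblast, 43 imprinted genes, 39 Hox genes or 46 serpins started in a member bin. Of 31 neural lineage genes Neurod4, a neuronal transcription factor, did so, and of 60 neuronal adhesion and synaptic genes Dpp6, an auxiliary subunit of potassium channels. Among 41 listed DNA replication and repair genes there were 3: Fancl, Nbn of the MRN double-strand break complex, and Orc5 of the origin recognition complex. The list was not complete, because Rfc3, named above, also starts in a member bin and was not on it. Late cells had replicated the bin of Nbn in 92.3% of the haploid and 19.2% of the diploid line, and that of Orc5 in 100% and 76.9%.

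Families in tandem clusters varied around that share, and since each cluster sits in few domains its genes are not independent. Of 113 keratin and keratin-associated genes 28 started in member bins, all in the chromosome 11 domain described above. Of 222 vomeronasal receptors 26 did so, or 11.7%. Vmn1r60 in the chromosome 7 cluster had 72% of haploid and 15.2% of diploid mid-S-phase cells replicated, and 100% and 76.9% of late cells. Of 1114 olfactory receptors, the odorant receptor genes, 38 or 3.41% started in members. Olfr410 on chromosome 11 had 96.2% of haploid and 69.2% of diploid late cells replicated, and in 72.7% of haploid early cells. Clustered protocadherins, which are neuronal adhesion genes, had 6 of 56. Of 360 zinc finger genes named Zfp 4 started in members, among them Zfp616 with 88.5% and 23.1% in late cells. Of 96 cytochrome P450 genes Cyp2c66 alone was in a member bin, and of 451 immunoglobulin and T cell receptor segments Iglv2 alone. In mirror bins, 71 of these clustered segments started, beside 436 of the 20048 protein-coding genes.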

How the data were processed

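The labels gave 86 haploid and 96 diploid S-phase cells and 6 haploid G1 cells, and values were matched to 138 by plate well. A further 24 columns of 8 diploid cells matched no label and were not used. Per the labels and methods, the authors mapped reads to mm10 (Bowtie2, SAMtools and bedtools are named), counted them in 50 kb windows relative to the reads of the cell, corrected the counts by the average of G1 and G2 controls, brought aneuploid chromosomes to the control mean, and scaled and smoothed each cell. The smoothed values they deposited are a score, relative within a cell. The authors then segmented and binarized each cell, so the deposited states are a fraction of 0 or 1, per homolog in diploid cells. One control mean served both lines. All labelled G1 cells are haploid, but the line of the control cells is not stated.

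Progress, members, runs and stage means were computed in Python 3.11.15 with numpy 2.4.6, pandas 2.3.3 and scipy 1.17.1, and plotted with matplotlib 3.10.9. The rule was run on simulated cells with known shifts as a check of the code. The simulation held no plate or chromosome differences, so it cannot tell how many members such differences give. Genes came from GENCODE M21 and promoters from RefSeq. Of 20048 protein-coding genes starting in a bin, 15183 had a matched promoter. Named domains were the 10 with the most bins and the 5 with the largest mean difference. Their genes are all overlapping ones where there are 6 or fewer, otherwise the 4 with the longest span, and 1 gene so chosen is not reported here. List genes are named by difference, up to 5 a list. Genes outside these rules (Rbms1) were chosen after their values were seen. The members and lists were chosen with earlier results of these data known. No test was run because no culture is named. Other settings of the window, limit, state, homolog, chromosome centring, GC content and cells were tried. Genes of near-identical families cannot be told apart within a bin.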

Additional observations from a re-analysis of the deposited data

How the results depend on the processing

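Of 36 alternative values of 9 results, 27 stayed within the spread or within 1.5 times the main count, 9 moved and 0 turned direction. The spread is an SD over cells, bins or domains, which is a wide limit. It exceeded the value itself for GC content (-1.43 points, spread 2.64) and the homolog difference (0.418 points, spread 1.07). Staying within it therefore shows little for these 2 results. Of the alternatives, 5 were chosen after seeing the data. The count of 937 member bins rose to 1930 in cells of 45% to 55% progress (14 haploid and 19 diploid cells), with 767 of the 937 among them, to 1845 with a smoothed score above 0 taken as replicated, with 645 among them, and to 2602 at 20 points, and it fell to 255 at 40 points. The 65 domains became 26 at 10 bins or more and 16 at 40 points. The early difference of 9.78 points became 16.3 in cells of 30% to 40%, the shift of 15.8 points became 25.9 with smoothed scores, and the share of members on chromosome 11 went from 14.7% to 26.3% at 40 points. The late difference ranged from 21.3 to 32.8 points over its alternatives. The first 3 Mb of each chromosome left out gave 870 members. The 129 or Castaneus state alone gave 905 or 961, but both states start from 1 shared signal. Of the diploid cells, 3 pairs had closely alike profiles (r of 0.876 to 0.888), and 992 members were found without 1 cell of each. Only 13 diploid late and 2 diploid early cells lie behind the stage comparisons, and depth per cell is unknown. No paired analysis was possible because the lines share no replicate or culture number and no result comes from a test.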
